A study of Mus musculus with 8 samples.

Results

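Imprinted genes outside the Dlk1-Dio3 cluster of chromosome 12 were followed by RNA sequencing of prospermatogonia, the germ cells that a mouse testis holds before birth, taken at E17.5 (embryonic day). The genes were chosen by name: 45 symbols were looked up in the GENCODE M21 annotation, and all 45 had a row among the 55401 genes of the deposited table. They fall into 23 domains on 12 chromosomes, and 18 of them lie on chromosome 7. The study compared 4 libraries labelled KO, of genotype Tet1-/-, with 4 labelled WT, of genotype Tet1+/+, all of batch 1 and all at the same age. The kind of Tet1 allele, the way the cells were isolated and any pooling of animals were not stated in the labels. The labels do not say that replicates came from separate animals, so p-values measure the spread between these libraries.

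An imprinted gene is expressed mainly or solely from the copy inherited from one parent, because a control region near it carries DNA methylation laid down in the egg or in the sperm lineage. The germ line erases these marks and writes them anew according to the sex of the embryo. In fetal male germ cells the paternal marks, such as those at H19, Rasgrf1 and Zdbf2, are written around this stage, while the control regions methylated in the egg stay unmethylated on both copies. TET1 oxidises methylated cytosine and takes part in the earlier erasure. A few further genes, among them Slc38a4, Gab1, Sfmbt2 and Jade1, are known for an imprint that rests on histone methylation inherited from the egg and is seen mostly in the early embryo and its extraembryonic tissue. In adult and fetal tissues most imprinted genes act on growth, on the placenta or on the brain.

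By these known marks, 37 members belong to domains methylated in the egg, 4 to domains methylated in the sperm lineage (H19, Igf2, Rasgrf1 and Zdbf2) and 4 to the histone-based class. The known expressed copy is the paternal one for 26 members and the maternal one for 11, and for 8 it depends on tissue or transcript. A count per gene does not tell the copies apart, so all levels below are sums over both.

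DNA around start sites bears on these genes because CpG dinucleotides are what DNA methylation acts on. RefSeq start sites on build GRCm38.p6 were matched for 37 of the 45 members, and each window ran from 250 bases before to 50 bases after the start. H19, Peg10, Sgce, Cdkn1c, Kcnq1, Impact, Peg13 and Trappc9 were not matched. With the highest value over a gene's windows, the median number of CpGs per window was 17.0 for the 37 members and 8.0 for all 27025 genes with a window. The hexamer TGCCGC, which the imprint-protecting zinc finger protein ZFP57 binds when it is methylated, was searched on both strands. It stood in windows of 12 members (32.4%) and of 13.1% of all genes. Members had more windows per gene than all genes (1.62 against 1.22), which favours a match. Per window the hexamer stood in 21.7% of 60 against 11.6% of 32851, and the median CpG number was 16.5 against 7.0. The core GCCAT, bound by YY1, stood in windows of 20 members (54.1%) and of 44.2% of all genes (27 of 60 and 13312 of 32851 windows), and no match overlapped one of the hexamer. A match is a string of letters and not a measured site.

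The start region between Peg3 and Usp29 is shown first because both genes read outward from it, at annotated starts 147 bases apart on opposite strands, and 263 bases of the Peg3 window also lie in the Usp29 window. The Peg3 window is chr7:6730370-6730669, minus strand, with 13 CpGs in capitals.
Peg3: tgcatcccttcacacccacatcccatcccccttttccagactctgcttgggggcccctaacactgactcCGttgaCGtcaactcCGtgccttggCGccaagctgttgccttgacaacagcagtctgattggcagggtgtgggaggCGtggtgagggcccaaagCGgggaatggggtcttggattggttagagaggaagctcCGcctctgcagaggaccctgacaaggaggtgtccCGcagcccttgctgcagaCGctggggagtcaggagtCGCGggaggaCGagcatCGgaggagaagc

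The next 4 windows are those with the hexamer among members that passed the test described below, and the hexamer is in capitals, written as TGCCGC or, on the other strand, GCGGCA. Both members that rose and members that fell are among them. They are chr1:63200108-63200407, plus strand, for Zdbf2, chr11:12037371-12037670, minus strand, for Grb10, chr7:142661222-142661521, minus strand, for Igf2, and chr7:60005150-60005449, minus strand, for Snrpn.
Zdbf2: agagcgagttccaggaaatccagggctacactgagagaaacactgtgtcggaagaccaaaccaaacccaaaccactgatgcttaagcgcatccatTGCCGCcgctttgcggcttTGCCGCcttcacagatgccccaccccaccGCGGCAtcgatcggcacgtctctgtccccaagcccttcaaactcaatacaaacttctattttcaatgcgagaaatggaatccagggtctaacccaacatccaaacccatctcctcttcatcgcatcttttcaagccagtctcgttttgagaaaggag
Grb10: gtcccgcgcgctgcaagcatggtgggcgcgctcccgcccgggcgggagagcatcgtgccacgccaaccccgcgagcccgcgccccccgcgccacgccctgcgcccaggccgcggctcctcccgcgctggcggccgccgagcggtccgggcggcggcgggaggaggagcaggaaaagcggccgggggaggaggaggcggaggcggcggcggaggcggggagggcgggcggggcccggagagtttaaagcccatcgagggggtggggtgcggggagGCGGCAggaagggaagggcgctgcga
Igf2: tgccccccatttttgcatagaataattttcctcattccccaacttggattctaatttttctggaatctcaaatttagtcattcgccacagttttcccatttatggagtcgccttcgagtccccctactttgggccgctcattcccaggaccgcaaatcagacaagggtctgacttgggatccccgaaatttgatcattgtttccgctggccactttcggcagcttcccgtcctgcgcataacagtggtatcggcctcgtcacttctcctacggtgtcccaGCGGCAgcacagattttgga
Snrpn: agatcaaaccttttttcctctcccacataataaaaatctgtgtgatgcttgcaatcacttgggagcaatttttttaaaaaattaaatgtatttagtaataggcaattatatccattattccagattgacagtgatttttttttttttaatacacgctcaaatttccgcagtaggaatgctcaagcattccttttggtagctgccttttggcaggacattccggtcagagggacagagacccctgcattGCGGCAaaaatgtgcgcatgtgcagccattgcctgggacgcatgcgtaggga

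The Grb10 window held 45 CpGs, the Zdbf2 window 15, the Igf2 window 14 and the Snrpn window 7. The Zdbf2 window held the hexamer 3 times and the others once. It belongs to a RefSeq start far upstream of the GENCODE gene given below, whose own start window (chr1:63273019-63273318) held 38 CpGs and no hexamer. The Igf2 and Snrpn windows lie within those genes, at starts other than the outermost. Among the 8 matched members that rose 2 had the hexamer, as had 2 of the 8 that fell and 8 of the 20 that did not pass.

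Library totals ran from 13820764 to 20115250 counts. Levels are given as CPM, each count over the library size after TMM scaling (trimmed mean of M values), times 1e6. The Tet1 gene count went against the labels: its mean was 31.9 ± 1.95 CPM (SD, n = 4) for label WT but 124 ± 33.4 CPM (SD, n = 4) for label KO. A count over the whole gene cannot show which exons were read, and every direction below refers to the labels as deposited. Germ cell markers, led by Piwil2, Tdrd1 and Ddx4, summed to between 2400 and 2800 CPM in the libraries labelled WT and between 2140 and 2620 CPM with label KO. The sums overlap. Of the 10 germ cell markers 7 passed the test described below, in both directions, beside 53.5% of all tested genes. At a mean log2 CPM from 4 upward 5326 of 8364 genes passed, and the mean of these markers was 6.77. Nanos3 (log2 difference 2.10), Nanos2 (1.66), Pou5f1 (1.5) and Dazl (0.71) were higher with label KO. Mael (-1.13), Piwil4 (-0.89) and Piwil2 (-0.50) were lower with label KO.

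The 6 Leydig cell markers, led by Cyp17a1, Cyp11a1 and Star, summed to 1760 CPM in KO 4. They stayed between 13.7 and 31.3 CPM in the other 7 libraries. The 9 Sertoli cell markers, led by Nr5a1, Inha and Gata4, summed to 153 CPM in KO 4 and to between 20.5 and 35.1 CPM elsewhere. Inha (58.3 CPM) and Nr5a1 (52.4 CPM) made up most of the sum in KO 4. Gata4 (17.4 CPM), Wt1 (7.33 CPM), Amh (5.01 CPM) and Aard (4.76 CPM) were also highest in that library. Sox9 (6.23 CPM) and Dhh (1.16 CPM) lay close to KO 3 (6.13 and 1.18 CPM), and Cldn11 (0.386 CPM) was lowest in KO 4. Amh (log2 difference 1.20), Wt1 (1.13), Aard (1.32) and Inha (3.51) were higher in each library labelled KO than in any labelled WT, and Dhh was lower (-0.83). Inha had 2.32, 2.21 and 2.36 CPM in KO 1 to KO 3, so the size of its difference rests on KO 4. Of the 9 Sertoli markers 5 were called higher, these 4 and Nr5a1, and 1 lower. Markers of stroma, vessels and blood, led by Col1a1, Pecam1 and Col1a2, summed to between 142 and 172 CPM in the libraries labelled WT and between 160 and 182 CPM with label KO. Of these 11 markers 3 rose (Col1a1 0.65, Pecam1 1.00 and Hba-a1 1.34) and 2 fell (Myh11 -1.56 and Cdh5 -0.64). Over all tested genes 25.3% were higher and 28.2% lower. No marker of these 3 somatic lists was at 0 in all 8 libraries. Of the 44 tested members, WT 2 gave the highest value among the libraries labelled WT for 25. With the mean log2 level of the 26 somatic markers as a covariate, 19 of the 21 members called below stayed past the threshold, and Airn and Inpp5f did not. The mean log2 level of the Leydig markers was 6.91 in KO 4 and between 1.24 and 2.31 elsewhere. The covariate thus largely sets KO 4 apart and can adjust little for somatic RNA in the other libraries. Values without KO 4 stand beside some of the results it touches. In bulk samples fewer cells of a type and less RNA per cell cannot be told apart.

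Imprinted genes changed in both directions, also within the Kcnq1ot1 domain. Of the 45 members 44 passed the filter on low counts. The edgeR test, with an adjusted p below 0.05 as the threshold, called 21 of these, of which 10 had a higher level with label KO and 11 a lower one. Over all 24005 genes tested 53.5% passed, with 25.3% higher and 28.2% lower, so the members' counts are close to that background when level is ignored. Their median log2 difference, KO minus WT, was -0.02, beside -0.05 for all tested genes. Scaling by the upper quartile gave 8 members higher against 19 lower, and scaling on ribosomal protein genes 8 against 14. Groups did not overlap for 18 members, in 8 with KO above and in 10 with KO below, where the share over all genes was 48.4%. At a mean log2 CPM from 4 upward, 3844 of 8364 genes were higher and 1482 lower. The 23 members at that level had 6 higher and 9 lower. Under 4, 2239 of 15641 genes were higher and 5288 lower, and the 21 members there had 4 higher and 2 lower. In both ranges the members leaned the other way from all genes, in small numbers, and this was not tested.

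**Figure D1:**
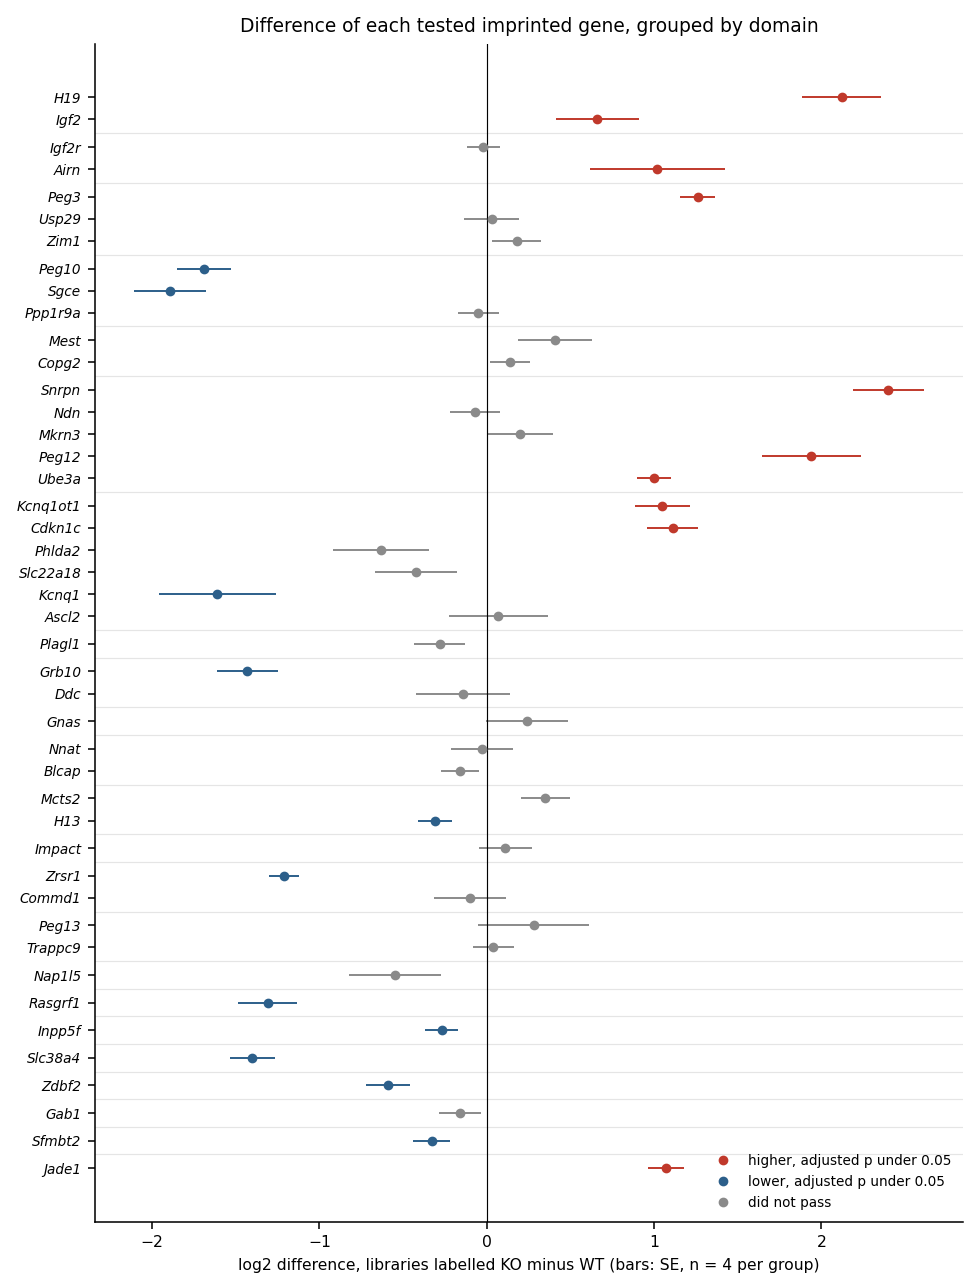
The log2 difference of CPM between the libraries labelled KO and those labelled WT (horizontal axis) is plotted for the 44 tested members, grouped by domain, with bars for the SE (n = 4 per group). The differences run from -1.89 for Sgce to 2.40 for Snrpn, and members of 1 domain often stand apart from each other.

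All 4 members of the domains methylated in the sperm lineage were called, 2 higher and 2 lower, where 53.5% of all tested genes passed. These 4 genes are too few to set the class apart, and the call of Igf2 depended on the settings given below. H19, a long noncoding RNA that restrains growth and is expressed from the maternal copy, lies at chromosome 7, 142575529 to 142578143 (GRCm38, minus strand). It stood at 22.59, 17.54, 22.83 and 33.0 CPM in WT 1 to WT 4 and at 78.5, 161, 85.8 and 91.3 CPM in KO 1 to KO 4. Every library labelled KO was above every library labelled WT, and KO 2 was far above its group. The means were 24.0 ± 6.48 and 104 ± 38.4 CPM (SD, n = 4), and H19 rose by 2.12 on the log2 scale (SE 0.235, edgeR adjusted p = 1.35e-05). Without KO 2 the difference was 1.87. Per kb of exons H19 became the most abundant member in the libraries labelled KO, at 42.4 ± 15.6 CPM per kb (SD, n = 4), where the next was Cdkn1c at 25.1.

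Igf2, the fetal growth factor gene that shares the enhancers of H19, was scarce. It had 3.84, 4.47, 2.87 and 5.69 CPM in WT 1 to WT 4 and 6.82, 8.11, 6.94 and 4.69 CPM in KO 1 to KO 4. The groups overlapped through WT 4 and KO 4. Igf2 rose by 0.66 (edgeR adjusted p = 0.0369), and by 0.82 without KO 4 (edgeR adjusted p = 0.016). But the call was lost in 8 of 18 alternatives, among them upper-quartile scaling (0.42, adjusted p = 0.167). These losses included 5 of the 8 fits that leave out 1 library, those without KO 1, KO 2, KO 3, WT 1 and WT 3 (adjusted p from 0.0565 to 0.102). Of the exon bases of Igf2 62.8% are shared on the same strand with Gm49394, whose count was 0 in all 8 libraries. How reads in the shared part were counted is not stated.

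Rasgrf1, a guanine nucleotide exchange factor that activates RAS in neurons, fell. It lies on chromosome 9, 89909908 to 90026977 (plus strand), and had 32.3, 29.9, 25.8 and 24.2 CPM in WT 1 to WT 4 against 9.81, 8.45, 12.6 and 14.3 CPM in KO 1 to KO 4. The groups were well apart, and the log2 difference was -1.31 (SE 0.175, edgeR adjusted p = 5.31e-05). Zdbf2, whose protein acts in hypothalamic control of feeding and growth in young mice, lies on chromosome 1, 63273265 to 63314576 (plus strand). Its level was 128, 189, 133 and 129 CPM in WT 1 to WT 4 and 103, 90.3, 93.5 and 98.4 CPM in KO 1 to KO 4. WT 2 stood apart from the other 3. Zdbf2 fell by 0.59 (edgeR adjusted p = 0.00204), and by 0.43 without WT 2 (edgeR adjusted p = 0.00211).

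Peg10 and Sgce, a divergent pair, fell together. Peg10 is a gene derived from a retrotransposon that the placenta needs, and Sgce encodes a sarcoglycan whose loss causes myoclonus dystonia. They lie head to head on chromosome 6, Sgce at 4674350 to 4747207 on the minus strand and Peg10 at 4747306 to 4760517 on the plus strand, with annotated starts 99 bases apart. Peg10 had 181, 221, 191 and 200 CPM in WT 1 to WT 4 and 54.7, 67.6, 79.5 and 43.4 CPM in KO 1 to KO 4. Sgce had 21.5, 17.7, 21.3 and 19.5 CPM in WT 1 to WT 4 and 5.63, 3.69, 7.97 and 4.37 CPM in KO 1 to KO 4. For both genes each library labelled KO was below each labelled WT, and KO 3 was the highest of its group in both. The mean was 3.23 times lower for Peg10 (log2 difference -1.69, SE 0.160, edgeR adjusted p = 4.27e-06). It was 3.70 times lower for Sgce (log2 difference -1.89, SE 0.215, edgeR adjusted p = 1.62e-05). Ppp1r9a, a neighbour for an actin-binding synaptic protein, had 89.8 ± 10.2 and 86.7 ± 12.1 CPM (SD, n = 4) under labels WT and KO and did not pass (edgeR adjusted p = 0.750). The fall was not confined to the pair. Of other imprinted genes of this region, Casd1 (-1.02, edgeR adjusted p = 0.000202) and Calcr (-1.98, edgeR adjusted p = 0.000613) fell too. Asb4, Pon2 and Pon3 did not pass (edgeR adjusted p from 0.130 to 0.908).

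In the Peg3 domain 1 of 3 members passed. Peg3, a zinc finger gene tied to maternal behaviour and growth, lies on chromosome 7, 6703892 to 6730431 (minus strand). It had 109, 95.2, 110 and 117 CPM in WT 1 to WT 4 and 227, 285, 256 and 261 CPM in KO 1 to KO 4. The lowest KO library exceeded the highest WT library. Peg3 rose by 1.26 (SE 0.105, edgeR adjusted p = 1.70e-06). Usp29, a ubiquitin protease gene that starts in the window printed above on the other strand, had 9.79 ± 1.10 and 10.02 ± 1.25 CPM (SD, n = 4), a log2 difference of 0.03 (SE 0.163, edgeR adjusted p = 0.874). The zinc finger gene Zim1 had 10.6 ± 0.282 and 12.1 ± 1.26 CPM (SD, n = 4) and did not pass (edgeR adjusted p = 0.313). Usp29 shares 14.8% of its exon bases with other genes, mostly Zim3 on the other strand, so its count is uncertain. From the list of other imprinted genes, Zim2 of this region fell by 0.61 (edgeR adjusted p = 0.000394). Zim3 and Zfp264 did not pass (edgeR adjusted p = 0.411 and 0.903).

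The Snrpn domain, whose human counterpart is lost in Prader-Willi and Angelman syndromes, had 3 members higher, 2 not passing and 1, Magel2, under the count filter. Snrpn encodes a protein of the splicing machinery and lies on chromosome 7, 59982495 to 60140219 (minus strand). It went from 3.64, 4.65, 3.46 and 3.49 CPM in WT 1 to WT 4 to 20.01, 23.6, 13.1 and 23.7 CPM in KO 1 to KO 4. With a mean 5.28 times higher it had the largest rise of the 44 tested members (log2 difference 2.40, SE 0.211, edgeR adjusted p = 2.45e-06). Of its exon bases 27.3% are shared on the same strand with genes such as Snurf, which was listed at 0 counts in all 8 libraries.

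Peg12, an intronless gene related to the FRAT regulators of WNT signalling, had 1.64, 2.09, 1.22 and 0.777 CPM in WT 1 to WT 4 and 5.76, 6.52, 4.28 and 5.53 CPM in KO 1 to KO 4. It rose by 1.94 (SE 0.294, edgeR adjusted p = 0.000135). The ubiquitin ligase gene Ube3a, whose imprint is seen in neurons, had 54.3, 62.0, 57.3 and 58.6 CPM in WT 1 to WT 4 and 120, 120, 101 and 124 CPM in KO 1 to KO 4. These groups did not overlap, and Ube3a rose by 1.00 (SE 0.101, edgeR adjusted p = 6.81e-06). Its antisense partner Snhg14 rose as well, from 10.2 ± 2.18 to 25.2 ± 3.15 CPM (SD, n = 4, log2 difference 1.30, edgeR adjusted p = 4.26e-05). Of the exon bases of Ube3a 27.3% face exons on the other strand, and without a stated strand setting reads of both cannot be told apart there.

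Their neighbours Ndn, Mkrn3 and Magel2 are single-exon genes of the same domain. Ndn, a growth suppressor of the MAGE family, had 21.0 ± 3.62 and 19.96 ± 2.47 CPM (SD, n = 4) under labels WT and KO (log2 difference -0.07, edgeR adjusted p = 0.711). Mkrn3, a ubiquitin ligase gene that restrains the onset of puberty, had 5.52 ± 0.869 and 6.34 ± 0.855 CPM (SD, n = 4, edgeR adjusted p = 0.411). Magel2 had 34 counts in all libraries labelled WT and 52 in all labelled KO, too few for a test.

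The Kcnq1ot1 domain held members that rose, fell and did not pass. Kcnq1ot1 is a long antisense RNA that silences its neighbours in cis on the paternal copy in the embryo and placenta, and Cdkn1c encodes the cell cycle inhibitor p57. Kcnq1ot1 lies on chromosome 7, 143203458 to 143296549 (minus strand), within Kcnq1 on the other strand. It had 113, 129, 112 and 121 CPM in WT 1 to WT 4 and 273, 196, 179 and 331 CPM in KO 1 to KO 4. The libraries labelled KO were all higher and more spread, with KO 4 at the top. It rose by 1.05 (SE 0.167, edgeR adjusted p = 0.000198), and by 0.89 without KO 4 (edgeR adjusted p = 0.000358). With the somatic marker covariate it rose by 0.83 and stayed past the threshold. Cdkn1c (143458339 to 143461050, minus strand) had 19.5, 27.8, 26.2 and 20.9 CPM in WT 1 to WT 4 and 48.0, 41.8, 54.7 and 60.3 CPM in KO 1 to KO 4. The groups did not overlap, and Cdkn1c rose by 1.11 (SE 0.150, edgeR adjusted p = 5.61e-05). Without KO 4, its highest library, it rose by 1.05 (edgeR adjusted p = 0.000214).

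Kcnq1, the potassium channel gene in which Kcnq1ot1 lies, fell. Its level was 3.74, 5.92, 3.85 and 2.33 CPM in WT 1 to WT 4 and 1.92, 0.851, 1.48 and 0.964 CPM in KO 1 to KO 4. WT 4 and KO 1 came close without meeting, and the log2 difference was -1.61 (SE 0.349, edgeR adjusted p = 0.00179). Phlda2, a brake on placental growth, had 5.69 ± 1.63 and 3.66 ± 1.32 CPM (SD, n = 4, edgeR adjusted p = 0.0805). The transporter gene Slc22a18 had 3.22 ± 0.521 and 2.39 ± 0.415 CPM (SD, n = 4, edgeR adjusted p = 0.162). Ascl2, a transcription factor gene of the trophoblast, had 2.37 ± 0.725 and 2.47 ± 0.587 CPM (SD, n = 4, edgeR adjusted p = 0.848). None of these 3 passed, and their libraries overlapped. Other imprinted genes of the region also went both ways. Cd81 (1.76), Dhcr7 (1.31), Tssc4 (1.03) and Nap1l4 (0.37) rose (edgeR adjusted p from 0.000101 to 0.0359). Cd81 and Dhcr7 were highest in KO 4, at 40.0 and 111 CPM. Trpm5 (-0.66, edgeR adjusted p = 0.0342) and Tnfrsf23 (-2.14, edgeR adjusted p = 9.09e-05) fell. Osbpl5, Tspan32 and Th did not pass (edgeR adjusted p from 0.166 to 0.696).

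Grb10 and Zrsr1 fell while Ddc and Commd1, the other members of their domains, did not pass. Cobl, next to Grb10 and from the list of other imprinted genes, fell by 1.10 (edgeR adjusted p = 1.50e-05). Grb10, an adaptor that dampens insulin and growth factor signalling, was per kb of exons the most abundant member in the libraries labelled WT, at 55.9 ± 13.2 CPM per kb (SD, n = 4). It lies on chromosome 11, 11930508 to 12038683 (minus strand), and had 461, 674, 506 and 391.5 CPM in WT 1 to WT 4 and 181, 148, 253 and 171 CPM in KO 1 to KO 4. WT 2 was the highest, and no library labelled KO reached any labelled WT. The log2 difference was -1.43 (SE 0.183, edgeR adjusted p = 3.73e-05), and -1.26 without WT 2. Its neighbour Ddc, the decarboxylase gene of dopamine and serotonin synthesis, had 4.96 ± 2.32 and 4.496 ± 0.440 CPM (SD, n = 4, edgeR adjusted p = 0.698).

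Zrsr1, an intronless copy of a splicing factor gene, lies on chromosome 11, 22972005 to 22976496 (plus strand), inside Commd1 on the other strand. It had 135, 134, 128 and 127 CPM in WT 1 to WT 4 and 54.8, 59.3, 58.6 and 54.4 CPM in KO 1 to KO 4. Both groups were tight, and it had the lowest adjusted p of the members (log2 difference -1.21, SE 0.0910, edgeR adjusted p = 8.33e-07). Commd1, a copper metabolism gene, had 12.9 ± 2.75 and 12.1 ± 3.28 CPM (SD, n = 4, edgeR adjusted p = 0.726). The exons of Zrsr1 share 9.2% of their bases with exons on the other strand.

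**Figure D2:**
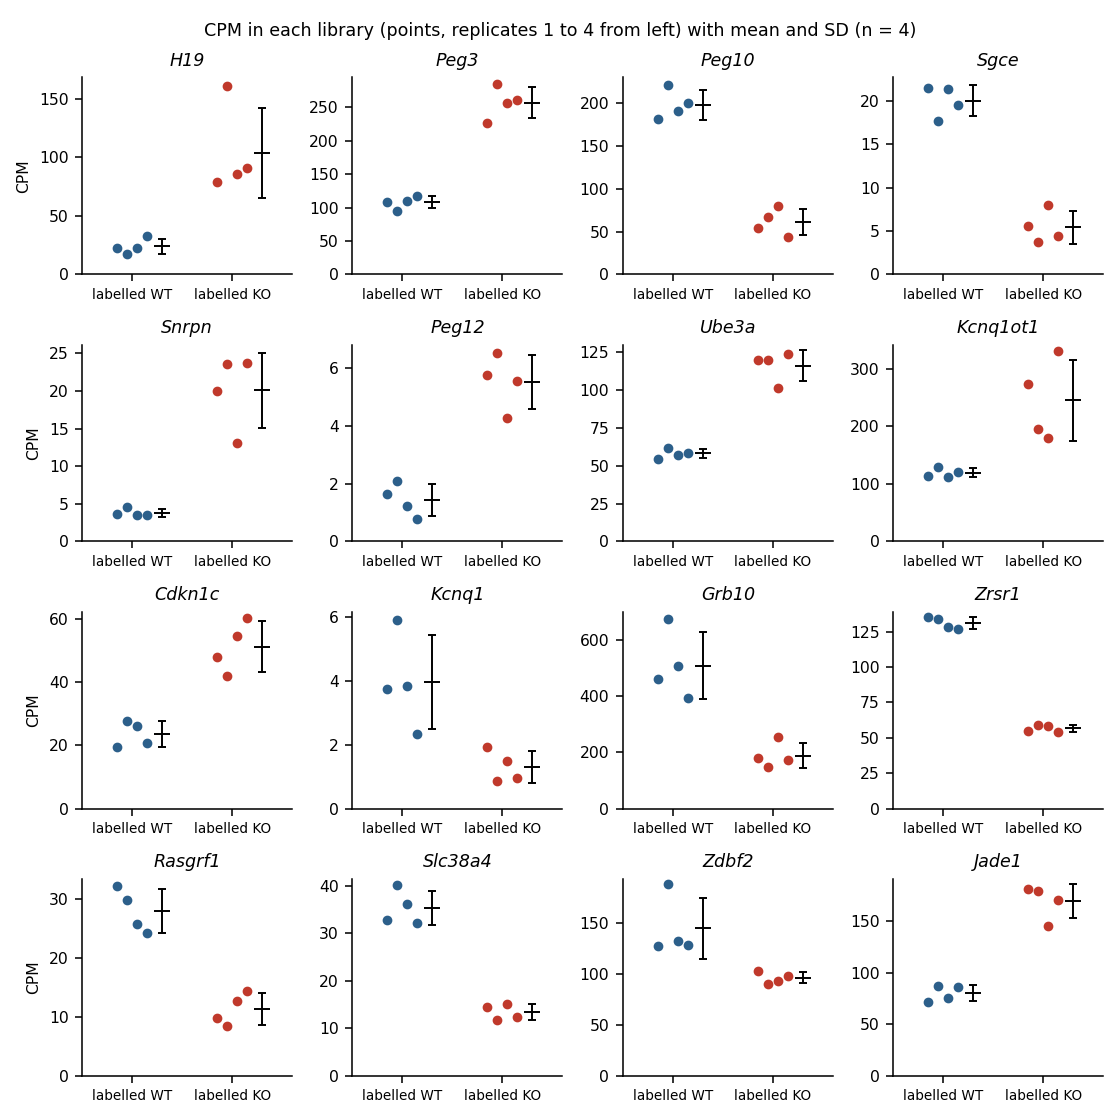
CPM (vertical axis, from 0) is plotted for each of the 4 libraries labelled WT and the 4 labelled KO, with the mean and SD beside them, for the 16 members that passed in every alternative fit. In each panel the points of the groups do not overlap, and H19 in KO 2 (161 CPM) and Zdbf2 in WT 2 (189 CPM) stand away from their own group.

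Of the 4 genes known for a histone-based imprint, Jade1 rose, Slc38a4 and Sfmbt2 fell and Gab1 did not pass. Jade1, part of a histone H4 acetyltransferase complex, had 71.7, 87.2, 75.4 and 86.4 CPM in WT 1 to WT 4 and 181, 179, 145 and 170 CPM in KO 1 to KO 4, without overlap (log2 difference 1.07, SE 0.109, edgeR adjusted p = 7.22e-06). Slc38a4, an amino acid transporter gene of placenta and liver on chromosome 15, 96994820 to 97055956 (minus strand), had 32.8, 40.1, 36.1 and 32.2 CPM in WT 1 to WT 4 and 14.4, 11.7, 15.1 and 12.3 CPM in KO 1 to KO 4. It fell by 1.40 on the log2 scale, also without overlap (SE 0.134, edgeR adjusted p = 4.46e-06). Sfmbt2, a Polycomb group gene of the trophoblast, had 118 ± 11.4 and 93.8 ± 10.9 CPM (SD, n = 4), with overlapping libraries. It fell by 0.33 (edgeR adjusted p = 0.0258) and lost the call in 6 of 18 alternatives, those without KO 1, KO 3, KO 4, WT 2 or WT 3 (adjusted p from 0.0542 to 0.120) and that with no low-count filter (0.114). Gab1, a docking protein of receptor kinases, had 28.6 ± 4.09 and 25.5 ± 0.870 CPM (SD, n = 4, edgeR adjusted p = 0.287).

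Igf2r, the receptor that clears IGF2 and a maternally expressed gene of chromosome 17, was among the most abundant members and stayed within its spread. It had 233, 204, 261 and 228 CPM in WT 1 to WT 4 and 228, 228, 213 and 242 CPM in KO 1 to KO 4, a log2 difference of -0.02 (SE 0.100, edgeR adjusted p = 0.871). With upper-quartile scaling it was lower by the test (-0.26, edgeR adjusted p = 0.0332), as with cyclic loess scaling (-0.26, limma adjusted p = 0.0185). Airn, the antisense RNA known to silence Igf2r on the paternal copy, had 45 counts in all libraries labelled WT and 78 in all labelled KO. It had 0.512, 0.813, 0.633 and 0.518 CPM in WT 1 to WT 4 and 1.46, 0.851, 0.812 and 1.93 CPM in KO 1 to KO 4. Airn rose by 1.02 (SE 0.402, edgeR adjusted p = 0.0465), with WT 2 and KO 3 nearly equal, and lost the call in 11 of 17 alternatives. These included the fits without KO 1, KO 4, WT 1, WT 3 or WT 4 (adjusted p from 0.0830 to 0.168), and without KO 4 the log2 difference was 0.77. With the somatic marker covariate it was 0.68 (edgeR adjusted p = 0.184). Cyclic loess scaling gave 1.67 (limma adjusted p = 0.00544). Near Igf2r, Slc22a3 (-2.28, edgeR adjusted p = 0.000881) and Slc22a2 (-1.37, edgeR adjusted p = 0.0159) of the list of other imprinted genes fell. Both were scarce, with means of 3.98 and 1.99 CPM under label WT and 0.833 and 0.775 CPM under label KO.

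The remaining domains had smaller differences. H13, a gene for a signal peptide peptidase in which the retrogene Mcts2 lies, fell by 0.31, from 53.8 ± 3.67 to 43.3 ± 2.72 CPM (SD, n = 4, edgeR adjusted p = 0.0208). Its call was lost in 6 of 18 alternatives, the replicate block (adjusted p = 0.0517), no low-count filter (0.150) and the fits without KO 1, KO 2, WT 1 or WT 4 (from 0.0564 to 0.0872). Mcts2, related to a translation reinitiation factor, had 13.6 ± 1.83 and 17.3 ± 1.79 CPM (SD, n = 4, edgeR adjusted p = 0.0616). It was higher by the test without KO 3, KO 4 or WT 1, with DESeq2 and with median-ratio scaling (adjusted p from 0.0377 to 0.0486). Inpp5f, an inositol phosphatase gene, fell by 0.27, from 86.4 ± 6.56 to 71.8 ± 5.42 CPM (SD, n = 4, edgeR adjusted p = 0.0395), and lost the call in 12 of 18 alternatives. These included each fit that leaves out 1 library but that without WT 1 (adjusted p from 0.0552 to 0.174) and the fit with the somatic marker covariate (-0.23, edgeR adjusted p = 0.106).

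Growth and hormone genes were among those that did not pass. Plagl1, a zinc finger regulator of other imprinted genes, had 42.4 ± 10.3 and 34.8 ± 2.62 CPM (SD, n = 4, edgeR adjusted p = 0.132), with WT 2 highest at 57.7 CPM. Gnas, the gene of a stimulatory G protein subunit with several imprinted transcripts, had 12.3 ± 3.89 and 14.5 ± 4.46 CPM (SD, n = 4, edgeR adjusted p = 0.415). Its antisense transcript Nespas, from the list of other imprinted genes, rose by 0.78 (edgeR adjusted p = 0.00182), and 22.0% of the exon bases of Gnas face exons on the other strand. Mest, a hydrolase gene of mesoderm, had 10.2 ± 2.63 and 13.5 ± 3.60 CPM (SD, n = 4, edgeR adjusted p = 0.136). Copg2, a coat protein gene whose end overlaps that of Mest, had 94.3 ± 10.2 and 104 ± 15.3 CPM (SD, n = 4, edgeR adjusted p = 0.337). Of the exon bases of Mest 23.1% face exons of Copg2 on the other strand, and 17.8% of those of Copg2 face Mest. The count of the scarcer Mest is thus uncertain. Klf14 of this region, from the list of other imprinted genes, fell by 1.38 (edgeR adjusted p = 0.000739).

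A further 6 members did not pass. Nnat, which encodes a small membrane protein and lies inside Blcap, had 7.15 ± 0.638 and 7.01 ± 1.24 CPM (SD, n = 4, edgeR adjusted p = 0.914). Blcap had 34.5 ± 1.93 and 30.9 ± 3.47 CPM (SD, n = 4, edgeR adjusted p = 0.262). The noncoding RNA Peg13 had 3.69 ± 0.681 and 4.48 ± 2.02 CPM (SD, n = 4, edgeR adjusted p = 0.494), and Trappc9, the trafficking gene in which it lies, had 47.4 ± 4.77 and 48.9 ± 6.67 CPM (SD, n = 4, edgeR adjusted p = 0.782). Nap1l5, a nucleosome assembly family gene, had 4.93 ± 1.23 and 3.37 ± 1.12 CPM (SD, n = 4, edgeR adjusted p = 0.108). Impact, a regulator of translation, had 12.5 ± 1.73 and 13.4 ± 1.57 CPM (SD, n = 4, edgeR adjusted p = 0.593). A p above the threshold does not show equal levels, and with upper-quartile scaling Ppp1r9a, Phlda2, Slc22a18, Plagl1, Blcap, Nap1l5 and Gab1 were lower by the test (adjusted p from 0.00852 to 0.0481).

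**Figure D3:**
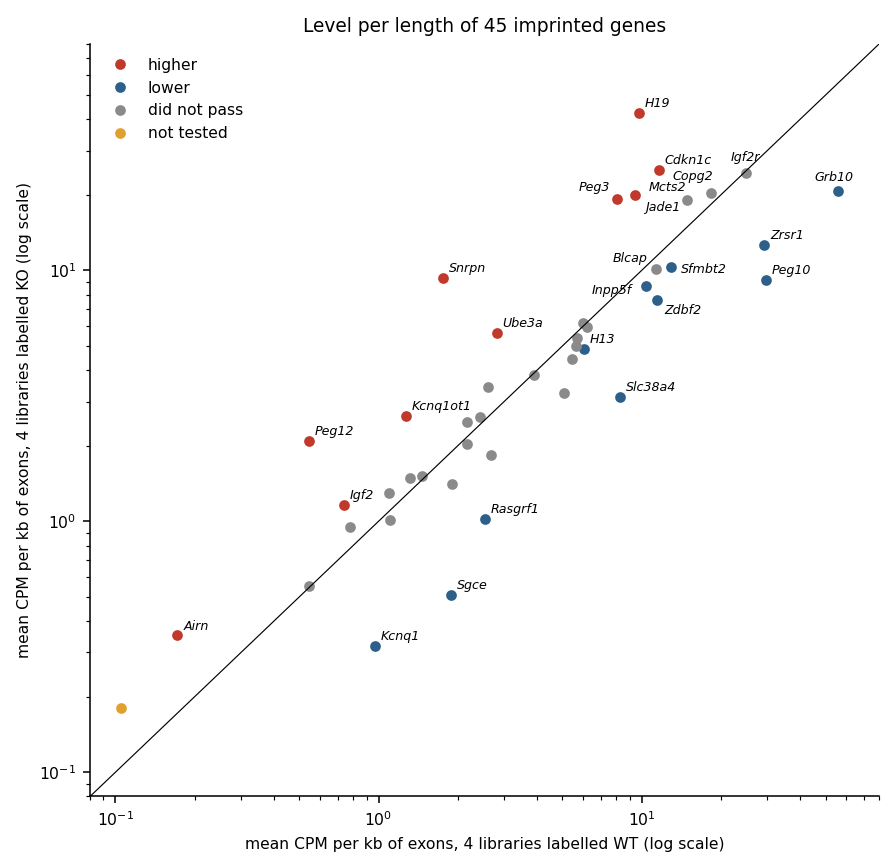
Mean CPM per kb of exons over the 4 libraries labelled WT (horizontal, log scale) is plotted against that over the 4 labelled KO (vertical, log scale) for all 45 members, with a line of equal level. Grb10 leads with label WT at 55.9 CPM per kb and H19 with label KO at 42.4, while Igf2r lies near the line at 24.9 and 24.5.

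Ratios of neighbouring genes within a library do not depend on how libraries are scaled. For 13 pairs of neighbours the log2 ratio of counts was compared by an exact two-sided permutation over the 70 splits, which can give no p below 0.0286. No pair passed after adjustment over the 13 pairs, and 6 pairs reached the smallest p (adjusted p = 0.0619), with groups that did not overlap. A pair could pass only if most of the 13 reached the smallest p, however large its own change. The H19 to Igf2 ratio went from 2.51 ± 0.42 to 3.93 ± 0.42 on the log2 scale (SD, n = 4), so H19 gained on its neighbour by 1.43. Peg3 gained on Usp29 by 1.22, Snrpn on Ube3a by 1.36 and Mcts2 on H13 by 0.66. Grb10 lost 1.39 against Ddc and Zrsr1 lost 1.09 against Commd1.

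Other pairs kept to overlapping ranges. Peg10 to Sgce, which fell together, had log2 ratios of 3.31 ± 0.25 under label WT and 3.52 ± 0.45 under label KO (SD, n = 4, exact permutation p = 0.514). Kcnq1ot1 to Cdkn1c, which rose together, had 2.34 ± 0.22 and 2.23 ± 0.36 (SD, n = 4, exact permutation p = 0.657). For Igf2r to Airn the difference was -0.95 (exact permutation p = 0.0857), with as few as 8 counts of Airn in a library.

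**Figure D4:**
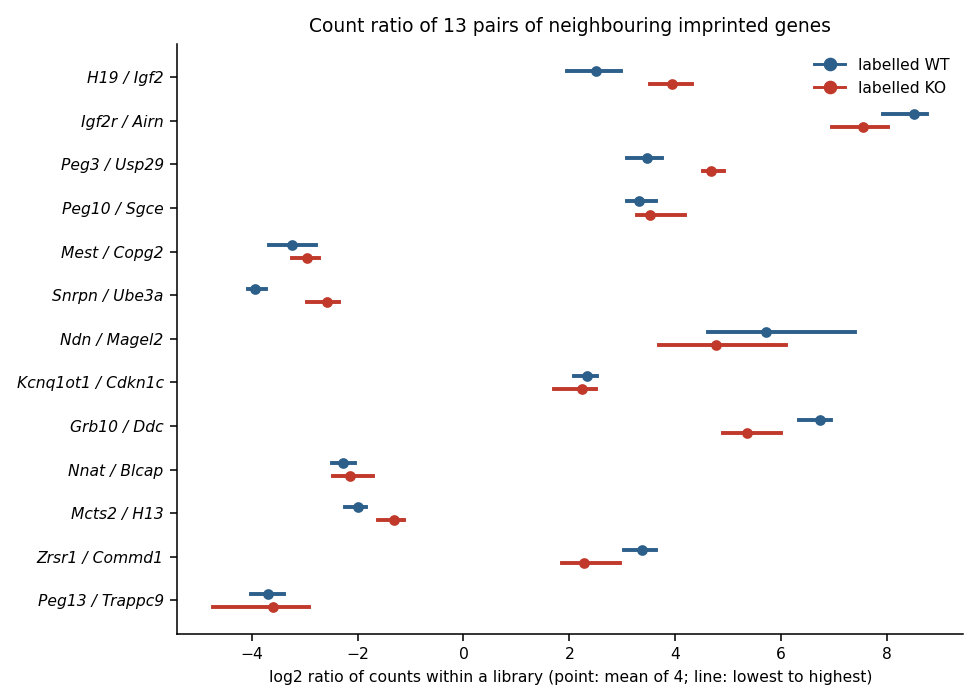
The log2 ratio of the counts of 2 neighbouring genes within a library (horizontal axis) is plotted for 13 pairs, with the mean as a point and the range over 4 libraries as a line. The ranges are apart for 6 pairs, such as Peg3 to Usp29 (3.08 to 3.74 against 4.52 to 4.92), and overlap for Peg10 to Sgce (3.08 to 3.64 against 3.27 to 4.19).

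Further genes reported as imprinted in mouse also went both ways. Of 40 genes found, 35 were tested, 7 higher and 14 lower, with a median log2 difference of -0.45 beside -0.05 for all tested genes. Over all genes 25.3% were higher and 28.2% lower. Among the 15641 genes with a mean log2 CPM under 4, where the list's mean of 3.21 lies, 2239 rose and 5288 fell, and the median was -0.34. Those with the lowest p were Cobl, an actin nucleator next to Grb10, which fell by 1.10 (edgeR adjusted p = 1.50e-05), and Atp10a, a lipid flippase gene near Ube3a, which rose by 1.04 (edgeR adjusted p = 2.02e-05). Ago2, the small RNA effector near Peg13, rose by 1.08 (edgeR adjusted p = 7.29e-05). Tnfrsf23, a decoy receptor gene of the distal part of the Kcnq1ot1 region, fell by 2.14 (edgeR adjusted p = 9.09e-05).

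Of 18 genes listed for methylation or imprint control, 12 were higher with label KO and 4 lower. The list is mixed and not confined to genes that write or protect the marks. At their level (mean log2 CPM 6.49) higher calls were also the more common among all genes, as given above for a mean from 4 upward (3844 of 8364 higher, 1482 lower). The 4 that fell were Dnmt3l (-1.33) and Dnmt3a (-0.59), which take part in the writing of methylation in the male germ line, Ctcfl (-1.19), a testis relative of CTCF, and Nlrp2 (-0.96). Those with the lowest p all rose, namely Hells, a chromatin remodeller (1.70), Uhrf1, the partner of maintenance methylation (2.05), Dppa3, which protects maternal marks in the zygote (4.04), and the zinc finger factor Yy1 (1.08). Their edgeR adjusted p was 5.06e-06 or lower. Zfp57 itself had 3.59, 5.81, 3.65 and 3.95 CPM in WT 1 to WT 4 and 5.17, 3.74, 4.87 and 5.85 CPM in KO 1 to KO 4, and did not pass (edgeR adjusted p = 0.470).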

How the data were processed

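RNA of snap-frozen pellets was extracted with TRIzol and made into ribosome-depleted libraries with a Takara kit that carries molecular identifiers, per the labels' protocols. The authors deposited 1 table of raw counts per gene, with whole numbers and no normalization, and 1 column for each of the 8 libraries. Trim Galore, STAR, featureCounts 1.5.0, edgeR, DESeq2 and the build mm10 are named, without role or order, per the submitters' processing notes. No source at hand gives the strand setting, the annotation release or the use of the identifiers. The 55401 identifiers were matched without version to GENCODE M21 (GRCm38), and 260 had no match.

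The deposited counts entered edgeR 4.0.16 under R 4.3.3 (filterByExpr, TMM, quasi-likelihood test of genotype, Benjamini-Hochberg over all 24005 tested genes, threshold 0.05). SE is the log2 difference over the root of F. DESeq2 1.42.0 and limma 3.58.1 served as alternatives, with other scalings, filters, a replicate block, a somatic marker covariate and each library left out. Cyclic loess was added after seeing the data. Pair ratios had 0.5 added to each count. A count of 0 allows up to 3 counts. Every member is named, and of other lists the genes with the lowest p (up to 4) or, for markers, the highest level (up to 3). Snhg14, Snurf, Gm49394, Zfp57, Nespas, the genes listed for methylation or imprint control that fell and the further marker genes were named after their values were seen. The same holds for the other imprinted genes named beside Peg10, Peg3, Airn, Mest and the members of the Kcnq1ot1 domain. The members and lists were chosen with earlier results of these data known. The test was tried on simulated data.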

Additional observations from a re-analysis of the deposited data

Results flagged for a closer look

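Of 88 groups of 4 libraries (44 tested members in each label), 4 held a library far from the other 3, where chance flags about 1 in 20 groups. H19 was at 161 CPM in KO 2 and between 78.5 and 91.3 CPM in the other libraries labelled KO. Mest was at 18.9 CPM in KO 2 and between 11.1 and 12.1 CPM in the others of that label. Snrpn was at 4.65 CPM in WT 2, beside 3.46 to 3.64 CPM in the other libraries labelled WT. Zdbf2 was at 189 CPM in WT 2, beside 128 to 133 CPM.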

How the results depend on the processing

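Of the 21 members called, 16 passed in every alternative that was run and none changed sign in any, while Igf2, Airn, H13, Inpp5f and Sfmbt2 lost the call in at least 1. Of the 23 that did not pass, 9 did so in 1 or more alternatives. With upper-quartile scaling, which moved the median of all genes by -0.24, 19 members were lower against 11. Leaving out 1 library gave 8 to 10 members higher and 9 to 10 lower. All other counts of members and of other imprinted genes stayed within 1.5 times. No neighbour pair passed the exact permutation test in any setting, an outcome largely set by the smallest p that the splits allow. Without 1 library between 3 and 6 pairs had an unadjusted p under 0.05. With the replicate number as a block 8 members were higher and 9 lower, and for the pairs no p below 0.125 was possible. Same-numbered libraries deviated together with correlations of 0.15, -0.21, -0.11 and 0.01, so the numbers were not taken as pairs. The library names of KO 1 and WT 1, the pair at 0.15, share a number whose meaning is not stated, and a common source of these 2 libraries was not tested. Airn could not be fitted with the stricter filter, which it did not pass. Low counts limit Airn, Magel2, Kcnq1 and Peg12 most.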
